A study of Equus caballus with 18 samples.

Results

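The 9 genes described here take copper into the cell, hand it on inside, use it and send it out: SLC31A1, SLC31A2, ATP7A, ATP7B, ATOX1, CCS, SOD1, COMMD1 and CP. They were chosen by gene symbol among the 16661 genes that the array names, and each had 1 probe set with that symbol. SLC31A1 was selected on its day 7 change, which earlier work on these values had placed among the highest of all genes, so day 7 against baseline is given for the 9 genes as a description with no test. Total RNA of synovial fluid, which fills the joint space, was measured on an equine expression array. The fluid came from the right antebrachiocarpal joint, a joint of the carpus, of 6 exercised adult Thoroughbreds, and the study gives an age range of 4 to 8 years for its horses. Isoflupredone acetate, a synthetic corticosteroid, was injected into that joint at 8 mg, and every horse was sampled at baseline, before the injection, then at 24 h and at day 7. By the labels each group is thus the same 6 horses, all of which had been free of joint medication for at least a year. The later samples follow the drug, the puncture, the earlier sampling and, at day 7, a return to exercise, which cannot be told apart here since joints injected with saline were not analysed here.

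Copper is needed by enzymes of respiration, antioxidant defence and matrix cross-linking, and is toxic when free. Cells therefore import it through CTR1, the product of SLC31A1, pass it to small protein chaperones, and export it through the pumps ATP7A and ATP7B. In mouse and human macrophages, copper import and the movement of ATP7A to phagosomes are known parts of the response to microbes and to inflammatory signals. Most copper in plasma is carried by ceruloplasmin, the product of CP, which also oxidises iron.

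Levels are given on the log2 scale for each gene's probe set, and precision is limited by how few arrays there are. At day 7, horses 1 and 2 shared the same value at 99.3% of probe sets and for all 9 genes. Their columns therefore counted as 1 array, so that 6, 6 and 5 arrays stood for baseline, 24 h and day 7. Whether that array measured horse 1, horse 2 or both cannot be told from the labels, so day 7 may not cover all 6 horses. The SD of all values within an array, a measure of its spread, averaged 1.37 ± 0.0931 at baseline, 1.56 ± 0.12 at 24 h and 1.70 ± 0.119 at day 7 (mean ± SD over arrays). Bright probe sets moved up and dim ones down: with probe sets split by mean level into 4 classes of equal size, the median change for day 7 against baseline was 0.51 in the brightest class and -0.61 in the dimmest. The 24 h array of horse 2 stood with the day 7 arrays (mean correlation 0.53 after centring each probe set, against -0.10 with the other 24 h arrays). The 24 h arrays of horses 1 and 3 stood nearer to baseline (0.21 and 0.15) than to the other 24 h arrays (-0.12 and -0.07). The baseline array of horse 4 stood apart from the other baseline arrays (-0.04, against 0.17 to 0.23 for the rest), as did the array of horses 1 and 2 at day 7 (-0.03, against 0.36 to 0.50). Whether any of these arrays carries another sample's label was not tested, and values without them are given where they matter. CD68, a marker of macrophages, ranked above at least 96.5% of probe sets on every array, while the cartilage gene ACAN ranked above 38.2% to 69.2%. In a bulk fluid sample, a change in the number of cells of a type cannot be told apart from a change in RNA per cell.

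The mean level of the importer SLC31A1 was higher at each later time, at 3.94 ± 0.57, 6.22 ± 1.39 and 8.41 ± 1.26 (SD, n = 6, 6 and 5). Its log2 value was 3.34 at the lowest, 3.81 at the median and 4.97 at the highest at baseline, and 4.55, 6.51 and 8.17 at 24 h. At day 7 it was 6.31 on the array of horses 1 and 2 and 8.38, 9.49, 9.26 and 8.59 in horses 3 to 6. Every day 7 array lay above every baseline array, whereas at 24 h horses 1 and 3, at 4.71 and 4.55, were still below the highest baseline array. As a rank within the array, which does not depend on its scale, SLC31A1 stood above 92.4% to 99.0% of probe sets at day 7, against 24.9% to 76.5% at baseline. The log2 change fitted within horses was 4.33 ± 0.53 (SE) for day 7 against baseline, or 20.1-fold, the highest of the 16661 named genes, and it was above 0 in 5 of 5 horses or horse pairs (horses 1 and 2 counted together). It was 4.82 without the array of horses 1 and 2, and 4.36 without the baseline array of horse 4.

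**Figure D1:**
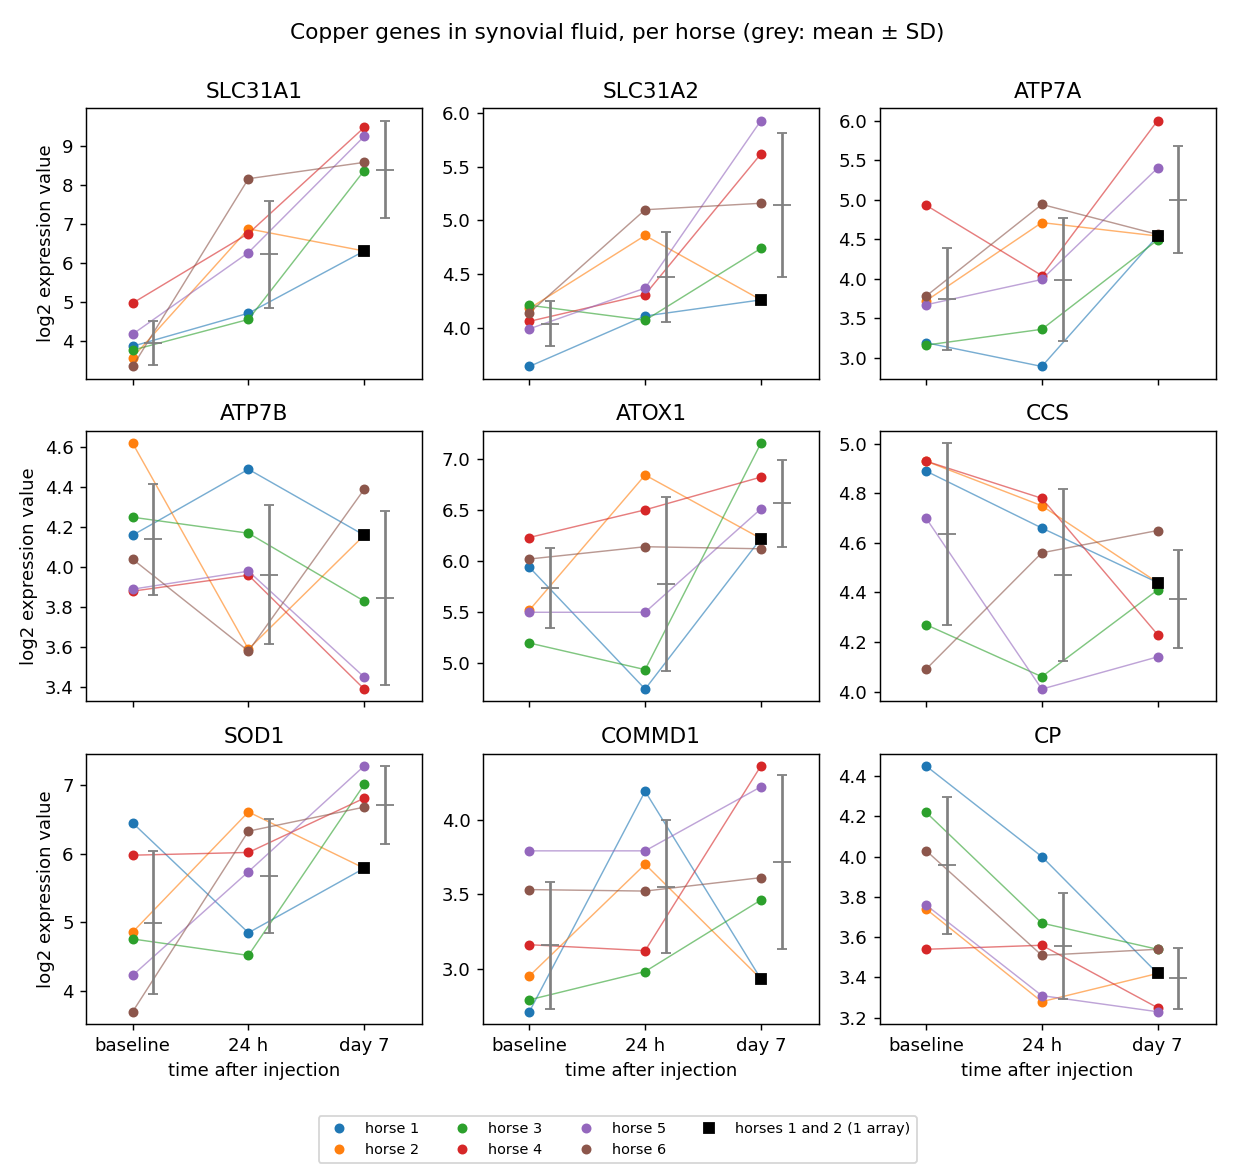
Log2 expression values of the 9 copper genes (vertical axes, own range for each gene) at baseline, 24 h and day 7; points are arrays, coloured by horse, the black square is the shared day 7 array of horses 1 and 2, lines join a horse's arrays, and grey bars give mean ± SD. SLC31A1 lies between 6.31 and 9.49 at day 7 and between 3.34 and 4.97 at baseline, while the values of ATP7B and CCS at the 3 times overlap.

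At 24 h against baseline, the log2 change of SLC31A1 was 2.28 ± 0.51 (SE), or 4.85-fold, with an adjusted p of 0.0505 in limma, so it did not pass at 0.05. It was above 0 in 6 of 6 horses, by 0.85, 3.31, 0.79, 1.79, 2.1 and 4.83 in horses 1 to 6. The adjusted p ran from 0.02 to 0.483 over 36 other settings of the analysis, 8 of which passed; leaving out horse 2 at 24 h made the change 1.97 (adjusted p = 0.139), and leaving out horse 4 at baseline made it 2.31 (adjusted p = 0.0606). It passed when horse 1 was left out (2.56, adjusted p = 0.0456), when only its baseline array was (2.66, adjusted p = 0.02) and when the 24 h array of horse 3 was (2.61, adjusted p = 0.0411). SLC31A1 was chosen on a day 7 change against the same baseline arrays, so the 24 h comparison is not independent of the choice. Between day 7 and 24 h the log2 change was 2.05 ± 0.53 (SE, adjusted p = 0.224, limma), above 0 in 5 of 5 with horses 1 and 2 averaged. Their shared day 7 array, at 6.31, lay above horse 1 (4.71) but below horse 2 (6.88) at 24 h. Leaving out the baseline and 24 h arrays of horse 2 (2.31, adjusted p = 0.0448, limma) or using array weights (2.46, adjusted p = 0.0054) changed the call for day 7 against 24 h. In the first, the shared day 7 array was kept and given to horse 1. The estimation of array weights stopped before convergence. These settings called 2% and 15.8% of all probe sets. SLC31A1 was chosen on values of the same day 7 arrays, so the comparison of day 7 with 24 h is not independent of the choice. The values at 24 h spread widely, with an SD of 1.39, against 0.57 at baseline.

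SLC31A2 encodes CTR2, a relative of CTR1 that lies mainly in endosomes and lysosomes and, in mice, helps to shape CTR1; the 2 genes are neighbours in the human genome. SLC31A2 read 3.64, 4.10 and 4.21 (lowest, median and highest) at baseline and 4.07, 4.34 and 5.10 at 24 h. The day 7 values were 4.26 on the array of horses 1 and 2 and 4.74, 5.62, 5.93 and 5.16 in horses 3 to 6. The day 7 arrays all lay above the baseline arrays, but the lowest of them, 4.26, only just cleared the highest baseline value. The log2 change for day 7 against baseline was 1.06 ± 0.27 (SE), or 2.09-fold. It was 0.43 ± 0.25 for 24 h against baseline (adjusted p = 0.366) and 0.63 ± 0.27 for day 7 against 24 h (adjusted p = 0.35, limma), so neither passed.

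The copper pumps differed in the sign of their day 7 change, and the difference between them was not tested. ATP7A, the pump of most cells outside the liver, read 3.16, 3.69 and 4.93 (lowest, median, highest) at baseline and 2.89, 4.01 and 4.94 at 24 h. At day 7 it read 4.54 on the array of horses 1 and 2 and 4.49, 6.00, 5.40 and 4.56 in horses 3 to 6. The groups overlapped, because the baseline array of horse 4, at 4.93, lay above 3 of the 5 day 7 arrays. The log2 change for day 7 against baseline was 1.20 ± 0.30 (SE), or 2.30-fold, above 0 in 5 of 5. It was, for day 7 against 24 h, 0.96 ± 0.30 (adjusted p = 0.261, limma), above 0 in 4 of 5, and for 24 h against baseline 0.25 ± 0.28 (adjusted p = 0.663). The shared day 7 array of horses 1 and 2, at 4.54, lay above horse 1 (2.89) but below horse 2 (4.71) at 24 h.

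ATP7B, the pump that loads ceruloplasmin and sends copper into bile in the liver, read 3.88, 4.10 and 4.62 at baseline and 3.58, 3.97 and 4.49 at 24 h (lowest, median, highest). At day 7 it read 4.16, 3.83, 3.39, 3.45 and 4.39, in the same order of horses as above. Low and high values occurred at each time, and horse 6 was highest at day 7 while horse 4 was lowest. The log2 change was -0.26 ± 0.24 (SE) for day 7 against baseline and -0.18 ± 0.23 for 24 h against baseline (adjusted p = 0.701, limma). Between day 7 and 24 h it was -0.08 ± 0.24 (adjusted p = 0.871), with the sign turned after quantile normalization (0.02) or median centring (0.03).

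The chaperones take copper from the importer to its users. ATOX1, which delivers copper to ATP7A and ATP7B, read 5.20, 5.73 and 6.23 at baseline and 4.75, 5.82 and 6.84 at 24 h. The day 7 values were 6.22, 7.15, 6.82, 6.51 and 6.12. The 24 h values were the most scattered of the 3 times, with horse 2 highest and horse 1 lowest. The log2 change of ATOX1 was 0.82 ± 0.34 (SE) for day 7 against baseline, above 0 in 5 of 5, and 0.77 ± 0.34 for day 7 against 24 h (adjusted p = 0.362, limma). At 24 h against baseline it was 0.04 ± 0.32 (adjusted p = 0.958, limma), and the sign turned after quantile normalization (-0.31) or without the 24 h array of horse 2 (-0.22). ATOX1 lies in the brightest of the 4 classes, whose median change for day 7 against baseline was 0.51. Within the array it ranked above 82.8% to 94.1% of probe sets at baseline and 89.5% to 94.6% at day 7. This rank fell in horse 6, from 94.1% to 89.5%, and rose in the others. The part of the shift of its class in the change of ATOX1 was not tested.

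CCS, the chaperone that inserts copper into SOD1, read 4.09, 4.79 and 4.93 at baseline and 4.01, 4.61 and 4.78 at 24 h, and 4.44, 4.41, 4.23, 4.14 and 4.65 at day 7. These ranges overlapped throughout. Its log2 change was -0.22 ± 0.22 (SE) for day 7 against baseline and -0.17 ± 0.21 for 24 h against baseline (adjusted p = 0.694, limma). Between day 7 and 24 h it was -0.05 ± 0.22 (adjusted p = 0.904), with the sign turned after quantile normalization (0.01) or median centring (0.05).

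SOD1, the cytosolic copper and zinc superoxide dismutase that CCS serves, read 3.70, 4.81 and 6.45 (lowest, median, highest) at baseline and 4.52, 5.88 and 6.61 at 24 h. At day 7 it read 5.79 on the array of horses 1 and 2 and 7.01, 6.81, 7.28 and 6.68 in horses 3 to 6. The baseline arrays of horses 1 and 4, at 6.45 and 5.98, lay above the lowest day 7 array, and the other baseline arrays lay below all of day 7. The log2 change was 1.74 ± 0.52 (SE), or 3.33-fold, for day 7 against baseline. It was 1.05 ± 0.52 for day 7 against 24 h (adjusted p = 0.393, limma) and 0.68 ± 0.49 for 24 h against baseline (adjusted p = 0.458). SOD1 and its chaperone thus had day 7 changes of opposite sign, but the difference between them was not tested. SOD1 also lies in the brightest class, whose median change for day 7 against baseline was 0.51. Within the array it ranked above 38.4% to 94.2% of probe sets at baseline and 88.1% to 94.1% at day 7. The part of the shift of its class in the change of SOD1 was not tested.

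COMMD1 takes part in the endosomal sorting that returns ATP7A and ATP7B to the cell surface, and loss of it causes copper storage in the liver of dogs. COMMD1 read 2.71, 3.05 and 3.79 at baseline, 2.98, 3.61 and 4.19 at 24 h, and 2.93, 3.46, 4.36, 4.22 and 3.61 at day 7. Horses 4 and 5 were highest at day 7 and the array of horses 1 and 2 was low. The log2 change was 0.54 ± 0.28 (SE) for day 7 against baseline, 0.40 ± 0.27 for 24 h against baseline (adjusted p = 0.434, limma) and 0.14 ± 0.28 for day 7 against 24 h (adjusted p = 0.806).

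CP, ceruloplasmin, had the lowest log2 changes of the 9 genes in each comparison. It read 3.54, 3.90 and 4.45 (lowest, median, highest) at baseline and 3.28, 3.53 and 4.00 at 24 h. The day 7 arrays gave 3.42 on the array of horses 1 and 2 and 3.54, 3.25, 3.23 and 3.54 in horses 3 to 6. The day 7 values were close together and at or below the lowest baseline value. The log2 change was -0.54 ± 0.17 (SE) for day 7 against baseline, below 0 in 5 of 5, and -0.40 ± 0.16 for 24 h against baseline (adjusted p = 0.192, limma), below 0 in 5 of 6. Between day 7 and 24 h it was -0.14 ± 0.17 (adjusted p = 0.685), and 0.0022 after quantile normalization. CP lies in the second dimmest of the 4 brightness classes, whose median change was -0.30 at day 7 and -0.12 at 24 h; the part of this shift in the change of CP was not tested.

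Counted together, 0 of the 9 genes passed limma at an adjusted p under 0.05 (called) for 24 h against baseline, where 1.01% of all probe sets were called, and 2, SLC31A1 and CP, had an unadjusted p under 0.05, as did 19.9% of all probe sets. For day 7 against 24 h, 0 of 9 passed and 0% of all probe sets did, while 4 genes, SLC31A1, ATP7A, SLC31A2 and ATOX1, and 13.2% of all probe sets had an unadjusted p under 0.05. On day 7 against baseline, which was used to pick the genes, 5 of the 9 lay past the same threshold, SLC31A1, SLC31A2, ATP7A and SOD1 above and CP below baseline, beside 27.3% of all probe sets; the count is a description and nothing is read from it. The median log2 change of the 9 genes was 0.25 at 24 h and 0.82 at day 7 against baseline, and that of all named genes was 0.01 and -0.04; both comparisons share the baseline arrays.

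**Figure D2:**
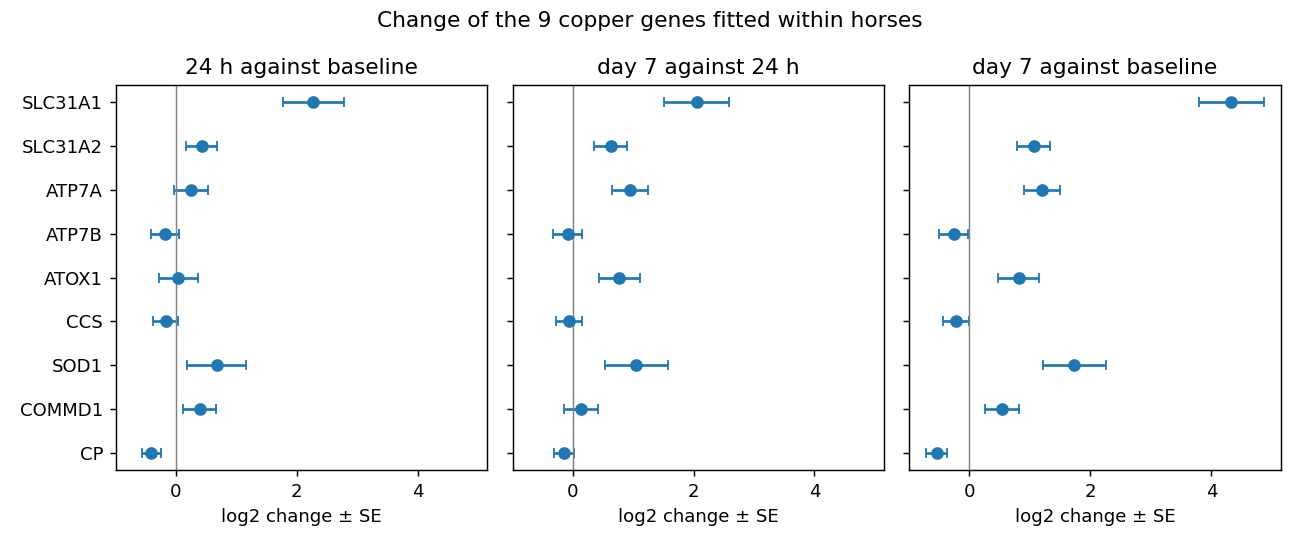
Log2 change fitted within horses (horizontal axis, points) with its SE (bars) for the 9 copper genes in each of the 3 comparisons. SLC31A1 is farthest to the right in each, at 2.28, 2.05 and 4.33, and CP is farthest to the left, at -0.40, -0.14 and -0.54.

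Macrophage markers moved on the same arrays. Of 18 listed markers, 14 had a probe set; the defining markers CD68 and CSF1R ranked above at least 96.5% and 74.7% of probe sets on every array. The summed log2 level of the 14 ran from 71.8 to 88.3 at baseline, from 73.8 to 111 at 24 h and from 89.1 to 113 at day 7. At 24 h 1 of them, the scavenger receptor CD163, was called as higher, beside 1.01% of all probe sets called in either direction. At day 7 against baseline 8 were, beside 27.3% of all probe sets. The median log2 change of the 14 markers was 0.61 at 24 h and 1.81 at day 7 against baseline, with 13 above 0 and 1 below 0 in each. Single markers differed widely, from -0.03 to 4.78 at 24 h and from -0.01 to 4.11 at day 7. Over the 17 arrays, the level of SLC31A1 and the mean level of these markers had a Pearson correlation of 0.93 (Spearman 0.87), and 0.92 after the mean of each time was taken out. SLC31A1 and the SD of the array had a correlation of 0.95 (Spearman 0.97), and 0.86 after the time means. These are descriptions of arrays that share their horses, and the part of either in the change of SLC31A1 was not tested. With the SD of the array as a covariate, the day 7 change of SLC31A1 against baseline was 1.28 and that at 24 h 0.51.

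At 24 h the mean change of the macrophage markers was -0.11 and 0.15 in horses 1 and 3, where SLC31A1 changed by 0.85 and 0.79. In horses 2 and 6 the markers changed by 1.60 and 2.15 and SLC31A1 by 3.31 and 4.83. In horses 4 and 5 the markers changed by 0.73 and 1.22 and SLC31A1 by 1.79 and 2.1. The order of the horses was the same in both measures but for horses 1 and 3. For other cell types the median log2 change at day 7 against baseline was below 0, at -0.44 for neutrophil markers, -0.26 for T cell markers, -0.64 for NK or cytotoxic cell markers, -0.32 for B or plasma cell markers and -0.31 for red blood cell markers. It was -0.30 for synovial fibroblast markers, -0.40 for chondrocyte markers and -0.31 for endothelial cell markers. Above 0 were 5 of 14 T cell, 2 of 8 B or plasma cell, 1 of 5 red blood cell, 3 of 12 synovial fibroblast and 1 of 7 endothelial cell markers. No neutrophil, NK or chondrocyte marker was. From the dimmest to the brightest of the 4 brightness classes, the median change of all probe sets was -0.61, -0.30, -0.04 and 0.51. The part of this shift in the marker medians was not tested.

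**Figure D3:**
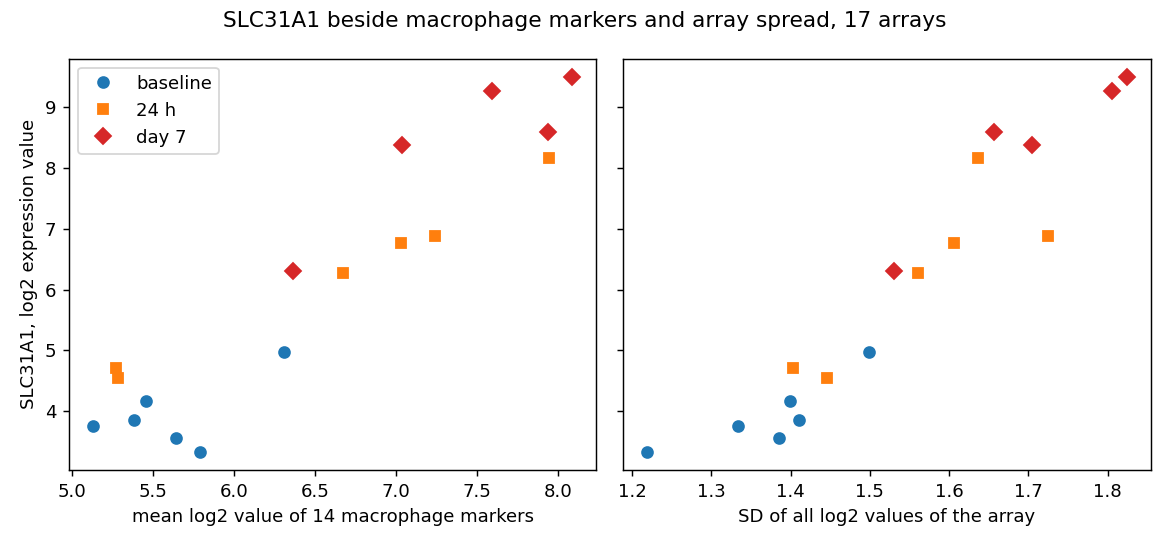
Log2 value of SLC31A1 (vertical axis) on each of the 17 arrays against the mean log2 value of 14 macrophage markers (left) and the SD of all log2 values of the array (right), with symbols for the 3 times. SLC31A1 is mostly higher on arrays where either measure is higher, also among the 24 h arrays, which run from 4.55 to 8.17. Among the baseline arrays on the left, horse 4 (4.97) is highest in SLC31A1 and in the marker mean, and the other arrays show no such order.

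The genes with levels most like those of SLC31A1 over the 17 arrays were ANXA5, which encodes the phosphatidylserine-binding annexin A5 (Pearson correlation 0.98), SLC7A8, an amino acid transporter (0.98), SNX9, a sorting nexin of endocytosis (0.98), and NF1, which encodes the Ras regulator neurofibromin (0.97). They were followed by STARD3NL, a protein of late endosomes (0.97), RAB1A, a GTPase of traffic from the endoplasmic reticulum (0.97), GLMP, a lysosomal membrane glycoprotein (0.97), and M6PR, the cation-dependent receptor for mannose 6-phosphate (0.96). After the mean of each time was taken out, the correlations of these 8 genes lay between 0.90 and 0.96, with GLMP second of 16660 genes. Without the 24 h array of horse 2, 5 of the 8 were still among the 8 most alike. Among the copper genes, SLC31A2 (0.89), SOD1 (0.83), ATP7A (0.82), ATOX1 (0.68) and COMMD1 (0.55) ran with SLC31A1, and CP (-0.75) and ATP7B (-0.64) ran against it, while CCS stood at -0.20 over all arrays and 0.21 after the time means. These correlations share arrays, horses and array spread, and are given without a test.

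Other genes of copper handling were described from 7 lists of 81 genes, 64 of which had a probe set. At 24 h against baseline 0 of 64 passed limma, with 9 at an unadjusted p under 0.05, beside 19.9% of all probe sets; PRNP, the prion protein, which binds copper at the cell surface, came nearest with a log2 change of 1.45 ± 0.33 (SE, adjusted p = 0.0532), above 0 in 5 of 6 horses. For day 7 against 24 h 0 of 64 passed, with 18 at an unadjusted p under 0.05, beside 13.2% of all probe sets. For day 7 against baseline 21 rose and 1 fell, which was 34.4% of the 64, against 27.3% of all probe sets. The call held in 13 (PDHA1) to 35 (VPS35) of 36 other settings, and in 15 for DCTN4, 20 for COMMD7, 21 for XIAP and 22 for PAM. Their median log2 change was 0.42, and that of all named genes -0.04.

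Reductases and a second route of uptake were among those that rose at day 7. STEAP4, a metalloreductase that can reduce copper and iron at membranes, rose by 2.16 ± 0.48 (log2 change, SE, adjusted p = 0.011, limma). It read 6.99 ± 1.10 at day 7 (SD, n = 5) and 4.81 ± 1.11 at baseline (SD, n = 6). Its relative STEAP3 rose by 0.75 ± 0.20 (adjusted p = 0.0206), CYBRD1, a reductase known from iron uptake, by 1.22 ± 0.38 (adjusted p = 0.0321), and SLC11A2, the divalent metal transporter DMT1, by 1.15 ± 0.32 (adjusted p = 0.0215). STEAP1 (-0.48) and STEAP2 (-0.52), the rest of the 6 genes of this list, did not pass.

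Of the partners of the copper pumps, 5 of 10 rose at day 7 and 0 fell, beside 27.3% of all probe sets called in either direction. VPS35, the core of the retromer that carries cargo out of endosomes, rose by 2.18 ± 0.38 (log2 change, SE, adjusted p = 0.0055, limma). It averaged 6.04 ± 0.95 at day 7 (SD, n = 5) and 3.78 ± 0.41 at baseline (SD, n = 6). AP1M1, a subunit of the clathrin adaptor AP-1, rose by 1.57 ± 0.41 (adjusted p = 0.0181), PRNP by 1.45 ± 0.35 (adjusted p = 0.0142), XIAP, an inhibitor of apoptosis whose product acts on COMMD1 and CCS, by 1.19 ± 0.39 (adjusted p = 0.0372), and DCTN4, a dynactin subunit that binds ATP7B, by 1.01 ± 0.35 (adjusted p = 0.0444). Of 11 measured genes of the COMMD family and its complex 3 rose, a share near the 27.3% of all probe sets: COMMD4 by 1.17 ± 0.26 (adjusted p = 0.0114), COMMD6 by 1.59 ± 0.47 (adjusted p = 0.0272) and COMMD7 by 1.56 ± 0.49 (adjusted p = 0.0346).

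SLC25A3, the mitochondrial phosphate carrier, which also brings copper into the matrix, rose by 2.31 ± 0.60 (log2 change, SE, adjusted p = 0.0183, limma) at day 7. The other 8 measured genes of that list, assembly factors of cytochrome c oxidase such as SCO1 (-0.06), SCO2 (-0.56), COX11 (0.04) and COA6 (-0.32), did not pass. Of the 9 measured genes of the list, SLC25A3 included, 4 had a log2 change above 0 and 5 below 0. The 9 metallothionein genes listed, which encode small metal-binding proteins, had no probe set with their symbol. MTF1, the zinc-sensing transcription factor that induces them, rose by 1.33 ± 0.35 (adjusted p = 0.0188), and SP1, a transcription factor that acts on SLC31A1 in human cells, by 0.91 ± 0.23 (adjusted p = 0.0176).

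Of 14 measured copper-dependent enzymes that are secreted or lie in membranes, 12 had a log2 change below 0 at day 7. The median of the 14 was -0.38, and 1 fell and 1 rose, beside 27.3% of all probe sets called. In the 4 brightness classes, from dimmest to brightest, the median change of all probe sets was -0.61, -0.30, -0.04 and 0.51. The part of this shift in the changes of these enzymes was not tested. LOXL1, a cross-linker of elastin and collagen, fell, with a log2 change of -1.09 ± 0.27 (SE, adjusted p = 0.0152, limma), and averaged 4.24 ± 0.13 at day 7 (SD, n = 5) and 5.33 ± 0.62 at baseline (SD, n = 6). PAM, which amidates peptides, rose by 0.89 ± 0.28 (adjusted p = 0.0333). Beside 27.3% of all probe sets called, 5 of 12 genes of copper in signalling and protein lipoylation rose. They were DLAT (2.09 ± 0.51, log2 change and SE, adjusted p = 0.0143), PDHA1 (1.29 ± 0.46, adjusted p = 0.0495) and DLD (0.77 ± 0.20, adjusted p = 0.0173) of the pyruvate dehydrogenase complex, and the kinases ULK2 (1.76 ± 0.38, adjusted p = 0.0101) and MAP2K1 (1.21 ± 0.32, adjusted p = 0.019), whose product MEK1 binds copper.

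**Figure D4:**
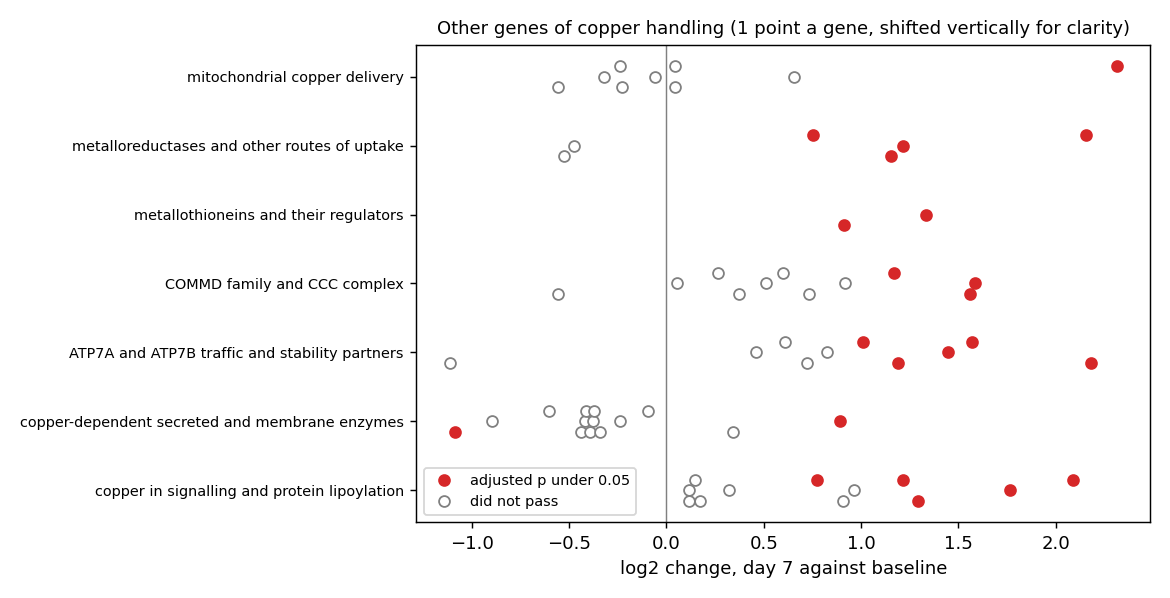
Log2 change for day 7 against baseline (horizontal axis) of the 64 other genes of copper handling, in 7 lists (rows); filled points had an adjusted p under 0.05 and open points did not. Of the filled points, 21 lie to the right of 0 and 1, LOXL1 at -1.09, to the left.

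The count of 22 depended on single animals and on scaling, as did the 27.3% of all probe sets called. Leaving out horse 3, 4, 5 or 6 gave 3, 9, 3 and 14, beside 7.73%, 12.9%, 5.76% and 14.8% of all probe sets. Leaving out only the day 7 array of horse 3, 4 or 5 gave 6, 10 and 5, beside 8.43%, 13.1% and 8.32%. Leaving out the baseline array of horse 2 gave 14, beside 14.6%. After quantile normalization 7 remained (STEAP4, VPS35, LOXL1, MAP2K1, ULK2, DLD and DLAT), beside 9.35%. With the SD of each array as a covariate 0 passed, beside 0% of all probe sets.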

How the data were processed

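Gene expression was measured in 18 array columns of synovial fluid RNA, of 6 horses at 3 times. The deposited table gives log2 values for 30559 probe sets. RMA, Transcriptome Analysis Console 3.0 and Affymetrix Expression Console are named, without their roles, in the submitters' processing notes, and what scale or centring was applied between arrays is not given in the sources used here. By the platform's gene annotation, 16789 probe sets carried a single symbol, 343 several and 13427 none; of several probe sets for a gene, the brightest on average was used.

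The near-identical day 7 columns of horses 1 and 2 were averaged, with the mean shared equally between both horses in the block. The 3 times were fitted over all probe sets with limma's two-sided moderated test (version 3.58.1, R 4.3.3; prior and residual degrees of freedom 4.71 and 9), with the horse as a fixed block and Benjamini-Hochberg adjustment over all probe sets of a comparison at a threshold of 0.05. The same horse names recur in the labels of all 3 times; after the time means were taken out, the median correlation was -0.02 for 18 same-horse pairs of arrays and -0.0037 for 78 other pairs. The fit was tested on simulated data. The 9 genes and the lists were chosen with earlier results of these data known. The text names the 9 genes, the genes of the 7 copper lists that were called (the 2 with the smallest p of a list with none), and the 8 genes most correlated with SLC31A1; SCO1, SCO2, COX11, COA6, STEAP1, STEAP2, APP and the cell markers CD68, CSF1R, CD163 and ACAN fall outside this rule and were chosen after their values were seen. Python 3.11.15 with matplotlib 3.10.9 drew the figures. Coordinates and sequences were not used here. P-values of the main fit rest on the spread left within these horses after time and horse were fitted, pooled over the 3 times.

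Alternatives were no block, the horse as a random effect, fits on the compared arrays alone, quantile normalization, median centring, the dimmest probe sets left out, robust eBayes with a trend, array weights, the mean of a gene's probe sets, the treatment of the merged array, and each horse left out. Each other single array left out and the array's SD as a covariate were added after seeing the data.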

Additional observations from a re-analysis of the deposited data

Results flagged for a closer look

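The ATP7A level of the baseline array of horse 4, 4.93, stood far above the other baseline arrays, which lay between 3.16 and 3.78. It was the only one of 27 groups (9 genes at 3 times) with such a gap, and chance gives about 1 such group in 20. On the same array SLC31A1 (4.97) and the summed log2 level of the macrophage markers (88.3) were also the highest of the baseline arrays, as was the SD of all values. Over all probe sets this array stood apart from the other baseline arrays (mean correlation -0.04 after centring each probe set, against 0.17 to 0.23 for the rest), and whether its label is right was not tested. Without that array the log2 change of ATP7A for day 7 against baseline was 1.34, against 1.20 with it.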

How the results depend on the processing

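The deposited arrays differ in spread, their number is small, and day 7 rests on 5 arrays. Without the horse as a block (no replicate block), 0, 0 and 5 of the 9 genes were called for 24 h against baseline, day 7 against 24 h and day 7 against baseline. Of the other 64 copper genes 1, PRNP, was called at 24 h and 29 at day 7 against baseline, against 0 and 22 with the block. The shares of all probe sets called in the 3 comparisons were 1.43%, 0% and 30.2% without the block, against 1.01%, 0% and 27.3% with it. At 24 h 1 of the 9 genes, SLC31A1, was called with the horse as a random effect, with array weights, with both day 7 columns of horses 1 and 2 kept, with their merged array given to horse 1 and with it left out. Of the other copper genes 1 was called under the same settings but the last. In that order, the settings called 1.99%, 0.687%, 1.6%, 1.62% and 0.893% of all probe sets at 24 h. With array weights, whose estimation stopped before convergence, 4 of the 9 and 21 others were called for day 7 against 24 h, and 35 others for day 7 against baseline. Array weights called 15.8% and 44.6% of all probe sets in these comparisons. Quantile normalization left 3 of the 9 and 7 others for day 7 against baseline, beside 9.35% of all probe sets. The SD of the array as a covariate, added after seeing the data, left 0 and 0, beside 0%. With that covariate, log2 changes turned sign at 24 h for SLC31A2 (-0.085), ATP7A (-0.38), ATP7B (0.24), ATOX1 (-0.62) and SOD1 (-0.92). They did so for day 7 against 24 h for ATP7B (0.22) and SOD1 (-0.11), and for day 7 against baseline for ATP7B (0.46), ATOX1 (-0.33) and SOD1 (-1.03). Quantile normalization turned ATOX1 at 24 h (-0.31) and, for day 7 against 24 h, ATP7B (0.018), CCS (0.0062) and CP (0.0022). Median centring turned ATP7B (0.026) and CCS (0.052), and leaving out the merged array turned CCS (0.015). The cause was not tested. Leaving out single horses, or single arrays other than the merged one, gave 0 to 1 of the 9 genes and 0 to 4 others at 24 h, 0 to 1 and 0 to 0 for day 7 against 24 h, and 1 to 6 and 3 to 28 for day 7 against baseline. Beside these stood 0.0164% to 4.11%, 0% to 2% and 5.76% to 35.8% of all probe sets. Without the merged array the last counts were 4 and 30, beside 31.8% of all probe sets. The lowest, 1 and 3, came without horse 5, where 5.76% were called. The count of 5 of the 9 genes was 2 or 3 without horse 3, 4 or 6, without the day 7 array of any of these, and without the baseline array of horse 2, 5 or 6, and 1 without the day 7 array of horse 5. SLC31A1 was chosen on day 7 against baseline. All counts of the 9 given here for that comparison are therefore descriptions, and nothing is read from them. The 4 others at 24 h were PRNP, APP, VPS35 and ULK2, without the baseline array of horse 1. Leaving out single horses, or single arrays other than the merged one, gave changes of -0.22 to 0.29 for ATOX1 at 24 h. For day 7 against 24 h it gave -0.29 to 0.031 for ATP7B, -0.16 to 0.064 for CCS and -0.11 to 0.36 for COMMD1. Of the 8 genes most like SLC31A1, 5 were kept without the 24 h array of horse 2 and 7 after quantile normalization. Among all probe sets, 3646 were called as higher and 4697 as lower for day 7 against baseline; quantile normalization gave 1611 and 1247, and median centring 3879 and 2568.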
